A study of Mus musculus with 31 samples.

Results

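The genes described here set mouse embryonic stem (ES) cells grown on gelatin apart from every other group of the series. A probe set, the group of oligonucleotide probes that measures 1 transcript on the array, was kept when its mean log2 signal on the 6 gelatin arrays lay at least 1 unit, a 2-fold difference, from the mean of each of the 4 other groups in the same direction. Of 12422 probe sets tested, 114 were higher on gelatin (0.918%) and 12 were lower (0.0966%), 126 in all. The 114 hold 100 probe sets with a single gene symbol, which name 92 genes, 4 with several symbols and 10 with none. The 12 hold 10 probe sets with a single symbol, which name 8 genes, and 2 with several. Since these group means chose the probe sets, their differences to the other groups are given below as a description and were not tested.

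The series follows B6 mouse ES cells as they spontaneously differentiate into embryoid bodies (EBs), on 31 Affymetrix MgU74Av2 arrays. Cells were kept on mouse embryonic fibroblast feeders (MEFs) with serum and LIF, a cytokine that holds mouse ES cells undifferentiated. The gelatin group (6 arrays, day 0) is of ES cells that were depleted of MEFs by brief plating on gelatin, passaged once on gelatin and harvested before confluence. The sorted group (6 arrays, day 0) is of ES cells purified by flow cytometry on a GFP reporter of Oct4. EBs were seeded from the ES cells on gelatin into nonadherent dishes without LIF and collected at day 4 (7 arrays), day 8 (6 arrays) and day 14 (6 arrays). All groups share the B6 background and a culture history on feeders. The passage on gelatin was meant to remove the MEFs, but no measure of residual feeder cells, no surface for the sorted cells and no number of ES cell lines is stated, and each array is of a bulk culture, in which more cells of a type and more RNA per cell cannot be told apart.

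Cells that spread on a rigid, coated surface bind it through integrins, build actin stress fibres, and deposit and remodel extracellular matrix. Tension in the actin network lets SRF and its cofactors act on genes of the contractile cytoskeleton through the CArG box, and lets YAP act with TEAD factors on genes such as Ccn1 and Ccn2. Fibroblasts use the same genes heavily, so matrix and contractile transcripts in an ES cell culture can come from the ES cells, from their early derivatives or from feeder cells.

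The markers of undifferentiated cells were present on the gelatin arrays, many of them at lower levels than in sorted cells. Of 28 pluripotency genes measured, 16 were lower than in sorted cells and 4 higher (limma, adjusted p under 0.05). Of all 8251 genes, 1516 were lower and 1922 higher. Pou5f1, which encodes Oct4, read 3908 to 5253 on gelatin, against a mean of 6419 in sorted cells (adjusted p = 0.182, limma), 1700 at day 8 and 1062 at day 14. Sox2, its partner, read 5185 to 6739, against means of 7722 in sorted cells (adjusted p = 0.0359, limma) and 6045 at day 14. Zfp42, a marker of the naive state, read 550 to 845 on gelatin, below every sorted array (5058 to 9032), and Fbxo15, an Oct4 target, read 1353 to 1692 against 6336 to 8268. Nanog read 1365 and 1984 on gelatin replicates 1 and 2 and 3210 to 4351 on the other replicates, with a mean of 6312 in sorted cells. It was also lower than at day 4 and day 8 (means 5396 and 6116, adjusted p = 0.00246 and 0.000347, limma). So were Fbxo15 and Klf2, and Zfp42 was lower than at day 8. Klf2, Klf4, Esrrb and Utf1 had gelatin means of 2028, 2616, 157 and 1826, lower than 3730, 4854, 180 and 2320 in sorted cells. Klf5 was not lower, at 1060 against 808 (adjusted p = 0.0737, limma). The Esrrb probe set was dim in every group, with means of 139 to 180. Against day 14, Sox2, Nanog, Zfp42 and Klf4 did not pass the test (adjusted p = 0.964, 0.333, 0.0725 and 0.0646, limma). Pou5f1, Klf2, Klf5, Esrrb, Fbxo15 and Utf1 were higher on gelatin than at day 14 (adjusted p under 0.05, limma).

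RNA quality moved with the gelatin group. The ratio of the 3′ to the 5′ control signal of Gapdh, which rises as RNA is shorter or less fully copied, was 5.22 ± 1.55 (SD, n = 6) on gelatin and had means of 2.92 in sorted cells, 3.12 at day 4, 2.31 at day 8 and 2.43 at day 14. Gelatin replicates 3, 4 and 6 had ratios of 6.67, 6.31 and 6.85, and replicates 1, 2 and 5 had 4.04, 3.94 and 3.48. The highest Gapdh ratio outside gelatin was 4.40, on day 4 replicate 1, above gelatin replicates 1, 2 and 5. The Actb ratio split the same arrays, with 6.10 to 6.82 against 4.10 to 4.27. Its highest value was 2.88 in sorted cells, 3.40 at day 4, 3.48 at day 8 and 3.08 at day 14, below every gelatin array. The part of RNA quality in the differences was not tested. The counts of probe sets are also given for each of these sets of 3 gelatin arrays alone. Both sets lay above every other array in the Actb ratio, so the split cannot separate RNA quality from the gelatin group. With replicates 1, 2 and 5, 138 probe sets were higher and 6 lower, of which 105 and 5 are among the 126. With replicates 3, 4 and 6, 116 were higher and 27 lower, of which 97 and 12 are among them. In both, 88 of the 114 and 5 of the 12 met the rule. Among the EBs, day 4 replicates 6 and 7 stood apart from the other day 4 arrays, with a summed signal of extraembryonic endoderm genes of 33677 and 37232 against 17406 to 19777, and results that rest on them are also given without them.

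Against each group singly, gelatin ES cells differed at many probe sets (limma, adjusted p under 0.05). They were higher at 2661 (21.4%) and lower at 2260 (18.2%) against sorted cells, and higher at 2023 (16.3%) and lower at 987 (7.95%) against EB day 4. They were higher at 3177 (25.6%) and lower at 2158 (17.4%) against day 8, and higher at 2878 (23.2%) and lower at 2712 (21.8%) against day 14. These splits depend on the scaling between arrays: the higher share of the calls was 67.2% against day 4 as deposited, 43.2% after quantile normalization and 38.6% after median centring. Against sorted cells it was 54.1%, 39.8% and 37.4%, against day 8 it was 59.6%, 45.3% and 49.2%, and against day 14 it was 51.5%, 53.4% and 60.2%. All 4 tests were passed in the same direction by 894 probe sets higher on gelatin (7.20%) and 276 lower (2.22%), or by 638 (7.73%) and 202 (2.45%) of the 8251 genes represented by their brightest probe set. The higher share here was 76.4% as deposited, 59.3% after quantile normalization and 64.2% after median centring.

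The 114 probe sets sat far above the other groups on nearly every gelatin array. In 102 of them the lowest gelatin array lay above the highest of the 25 other arrays, and in 6 of the 12 lower ones the highest gelatin array lay below all others. Among all probe sets such a gap was found in 380 (3.06%) upward and 55 (0.443%) downward. The median difference of the 114 was 1.65 log2 units to sorted cells, 1.76 to day 4, 1.89 to day 8 and 1.66 to day 14. The nearest group was sorted cells for 37, day 14 for 38, day 4 for 31 and day 8 for 8. In 18 the difference to every group was at least 4-fold, and in 2, Ccdc80 and a probe set without a gene symbol, at least 8-fold.

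**Figure D1:**
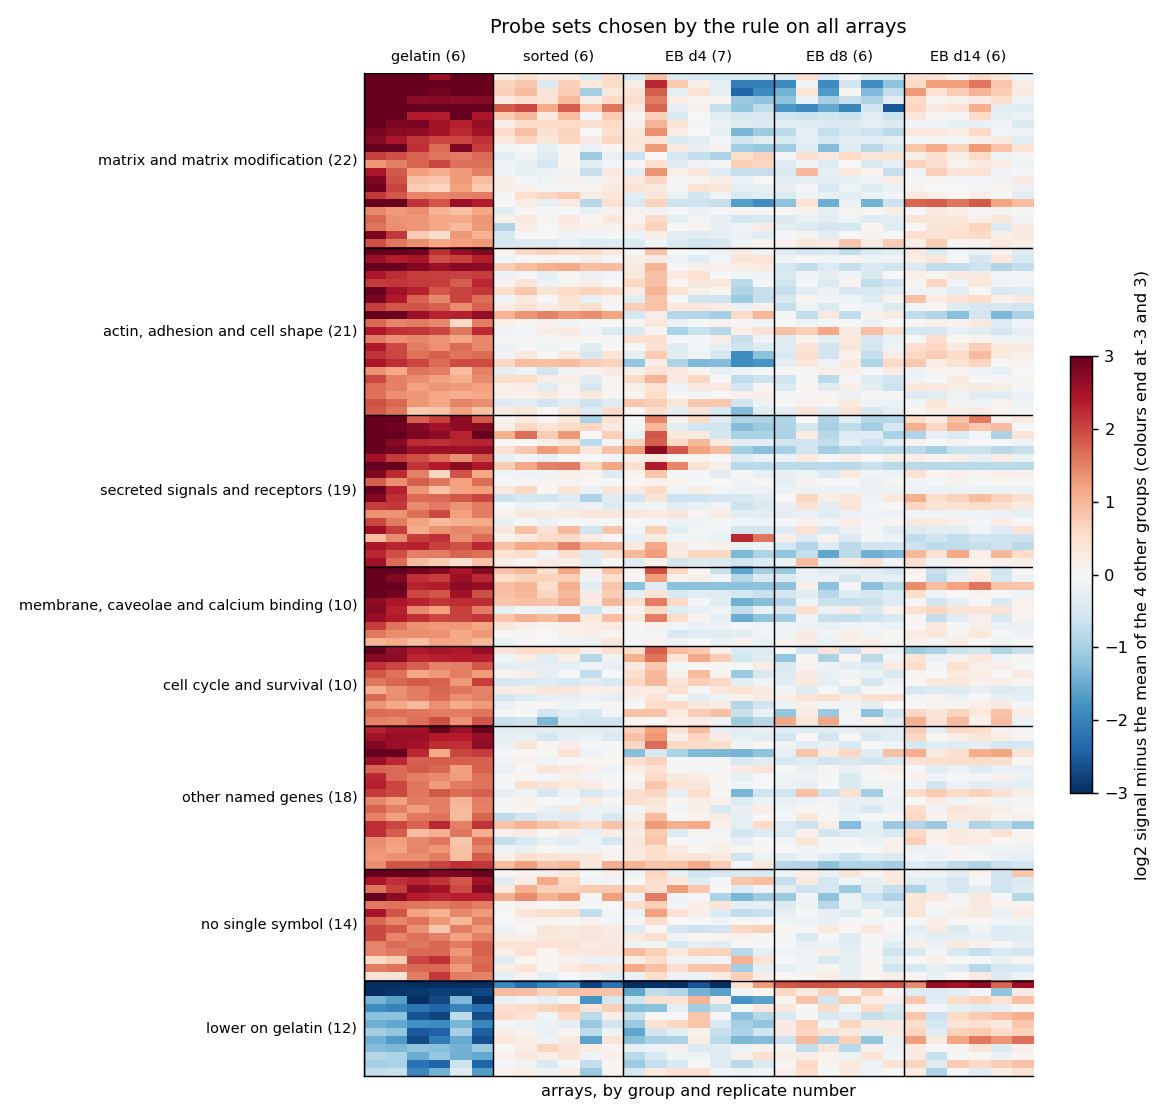
Log2 signal of the 126 probe sets (rows, grouped by role with the number in each) on the 31 arrays (columns), minus the mean of the 4 other group means. The 6 gelatin columns are red in the 114 upper rows and blue in the 12 lower rows, EB day 4 replicate 2 is the warmest column outside gelatin, and gelatin replicates 3, 4 and 6 are the deepest blue in the lower rows.

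A single EB array came closest to the gelatin pattern. Day 4 replicate 2 was the highest of the 25 other arrays for 57 of the 114, and the median of the 114 on it was 0.66 above the mean of the 4 other groups, where the other day 4 arrays lay between -0.42 and 0.17. Without it, 118 probe sets were higher on gelatin, all 114 among them. Within the gelatin group, replicate 1 was the highest array for 85 of the 114. The median of the 114 was 2.28 on replicate 1, 2.00 on replicate 2 and 1.57 to 1.76 on the other replicates and therefore all 6 lay above day 4 replicate 2.

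**Figure D2:**
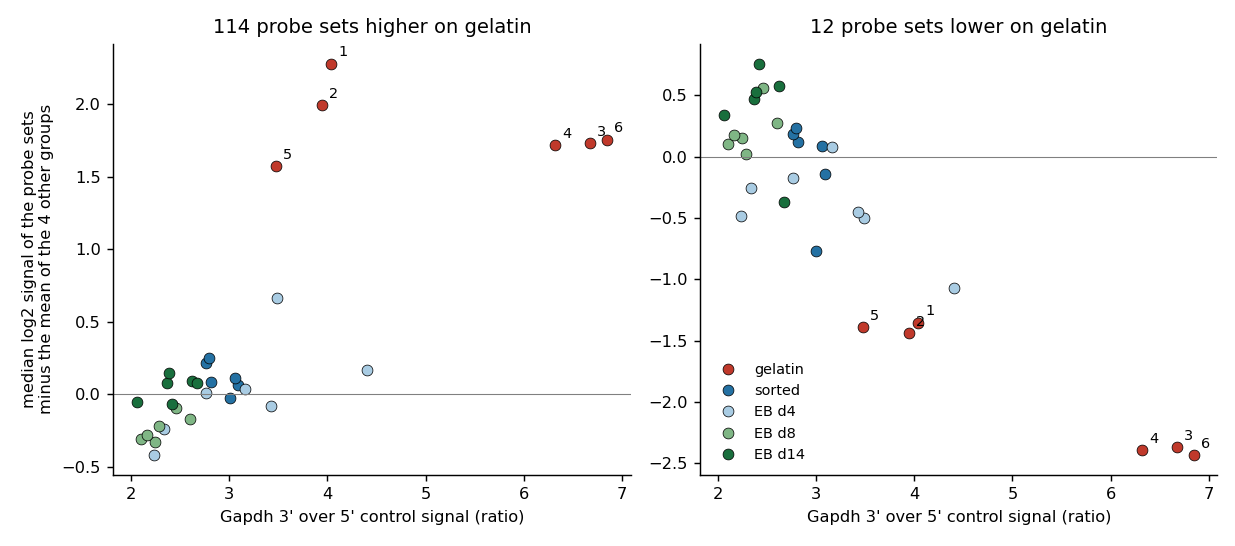
Median over the 114 higher (left) and 12 lower (right) probe sets of log2 signal minus the mean of the 4 other groups (vertical axis), against the Gapdh 3′ to 5′ ratio of the array (horizontal axis), 1 point an array, with gelatin arrays numbered by replicate. The higher set is at 1.57 to 2.28 on the gelatin arrays. The lower set is at -1.44 to -1.35 on replicates 1, 2 and 5 and at -2.43 to -2.37 on replicates 3, 4 and 6. These gelatin arrays chose both sets, and the part of RNA quality was not tested.

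The extracellular matrix and its modification held 22 probe sets for 20 genes. Ccdc80, a secreted matrix-binding protein, stood farthest from its nearest group of all the 114. Its signal was 1548, 1212, 739, 491, 974 and 835 on gelatin replicates 1 to 6, and no other array exceeded 153, with medians of 95.6 in sorted cells, 38.0 at day 4, 46.2 at day 8 and 105 at day 14. Every gelatin array was thus above every other array, and the group mean was 8.99-fold above day 14, the nearest group (folds are of mean log2 signals throughout).

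Tnc, the matrix glycoprotein tenascin-C, read 4036, 3115, 3258, 2869, 2216 and 3629 on gelatin replicates 1 to 6. Sorted cells ranged from 183 to 434 with a median of 376, day 4 from 41.0 to 1178 with a median of 280, day 8 from 65.8 to 222 with a median of 86.9 and day 14 from 289 to 752 with a median of 509. No other array reached the gelatin arrays, the highest EB value was that of day 4 replicate 2, and the nearest group was day 14 at 6.55-fold. The second Tnc probe set gave 3.26-fold.

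Lox, the lysyl oxidase that cross-links collagen and elastin, was chosen through both of its probe sets, with folds of 4.99 and 4.98 over sorted cells. The brighter one read 10451, 8258, 6473, 5754, 6736 and 6029 on gelatin replicates 1 to 6 and at most 1955 in sorted cells, 1677 at day 4, 335 at day 8 and 1042 at day 14. Sorted cells were the intermediate group, and day 8 EBs the lowest. Its relative Loxl1 stood 1.25 log2 units over sorted cells.

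Fbln2, the elastic-fibre protein fibulin-2, read 3792 to 7971 on gelatin with a median of 4905, against medians of 1114 in sorted cells, 729 at day 4, 573 at day 8 and 662 at day 14. Timp3, an inhibitor of matrix metalloproteinases, read 4930 to 7466 on gelatin and up to 2699 elsewhere. Both were clear of every other array, at 4.73-fold and 4.22-fold over sorted cells. Bgn, the small proteoglycan biglycan, stood 3.47-fold over sorted cells, and Prss23, a secreted serine protease, 5.58-fold over day 14.

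Col5a2, a fibrillar collagen chain, was high on gelatin and partly regained late in EBs. It read 7744, 5269, 2684, 2170, 3490 and 3013 on gelatin replicates 1 to 6, at most 818 in sorted cells and 948 at day 4, and 1120 to 2113 at day 14. The lowest gelatin array was only just above the highest day 14 array, and without gelatin replicates 1, 2 and 5 the difference to the nearest group was 0.62 log2 units, below the threshold. Nid1, the basement membrane linker nidogen-1, overlapped day 4, where replicate 2 read 247 against 206 to 534 on gelatin. Papss2, which makes the sulfate donor for proteoglycans, overlapped day 14 (177 to 242 against 228 to 1143).

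The matricellular proteins Ccn1 and Ccn2, secreted regulators of adhesion, were both in the set. Ccn2 read 8526, 7374, 6919, 6176, 5473 and 6943 on gelatin replicates 1 to 6, against at most 3269 in sorted cells, 4523 at day 4, 2917 at day 8 and 4446 at day 14. No group overlapped gelatin, and the difference to day 14 was 1.06 log2 units. Ccn1 was 2.67-fold over day 8. The insulin-like growth factor binding proteins Igfbp7 and Igfbp3 stood 5.41-fold over sorted cells and 2.59-fold over day 14. Igfbp3 was an exception in the set, being lowest on gelatin replicate 1 (4159) and highest on replicate 4 (6836). The other Igfbp3 probe set differed from the groups by -0.005 to 0.26 log2 units. The other matrix genes were C1qtnf3, Tll1, Qsox1, Ltbp1 and Gpc4, with differences of 1.01 to 1.28 log2 units to the nearest group.

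**Figure D3:**
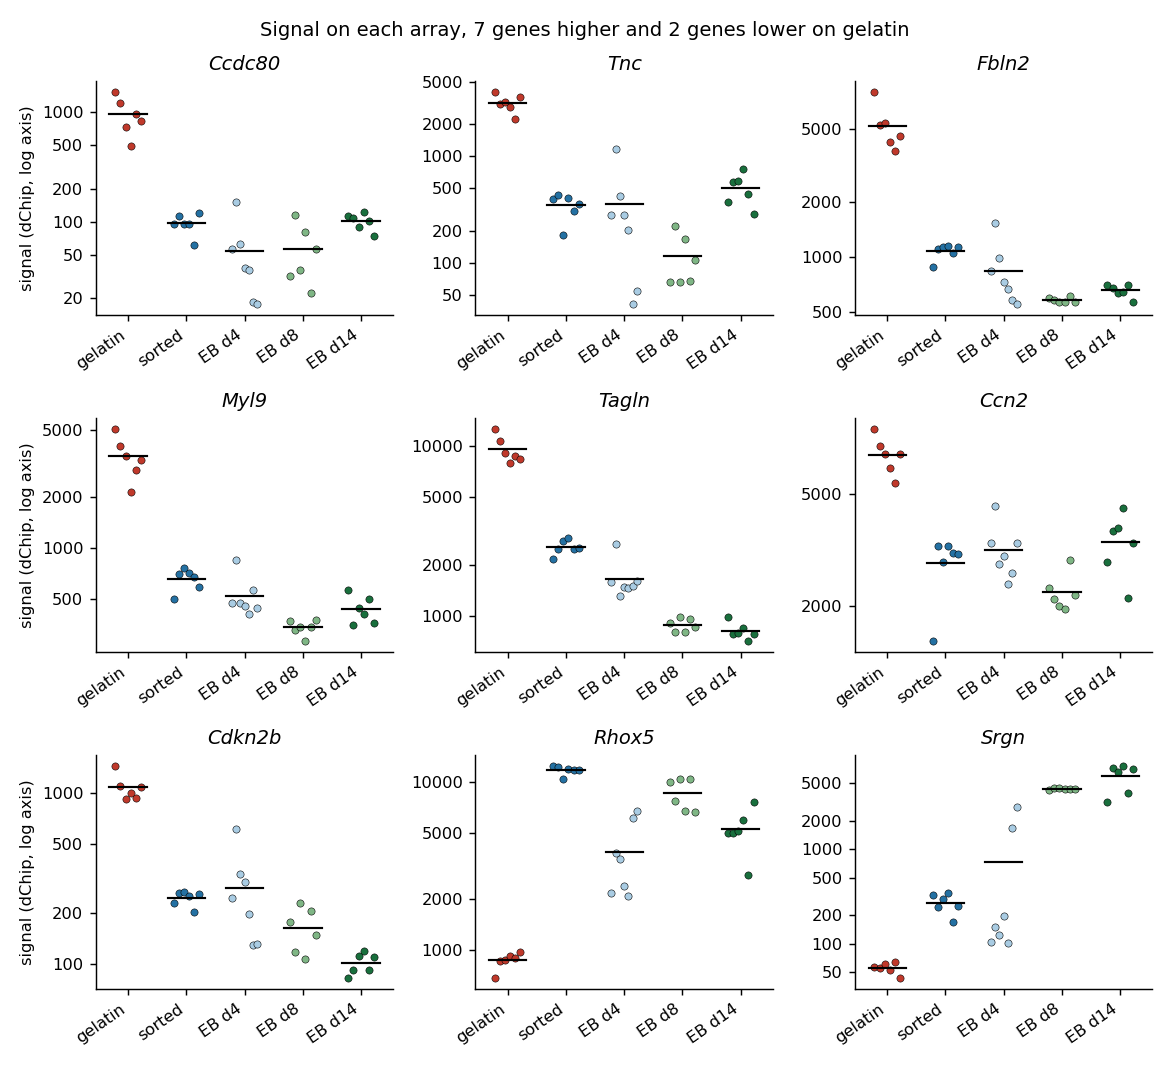
Signal on each array (vertical log axis, dChip units) of 7 genes higher and 2 genes lower on gelatin, by group, with points in replicate order and the group mean as a bar. The gelatin points lie above every other point for Ccdc80, Tnc, Fbln2, Myl9, Tagln, Ccn2 and Cdkn2b and below every other point for Rhox5 and Srgn.

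The actin, adhesion and cell shape group held 21 probe sets for 20 genes. Myl9, a regulatory light chain of nonmuscle and smooth muscle myosin, read 5059, 4005, 3490, 2140, 2894 and 3311 on gelatin replicates 1 to 6. Its highest other values were 766 in sorted cells, 850 at day 4, 381 at day 8 and 567 at day 14. Myl9 was thereby 5.15-fold over sorted cells, the nearest group, with no overlap.

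Tagln, the actin-bundling protein transgelin, read 12577, 10643, 9031, 7937, 8698 and 8402 on gelatin, and its groups were ordered from gelatin through sorted cells (2169 to 2884), day 4 (1316 to 2643) and day 8 (802 to 981) to day 14 (712 to 992). Days 8 and 14 overlapped, as did sorted cells and day 4. The smooth muscle actin Acta2 read 10927 to 18659 on gelatin and 5221 to 6500 in sorted cells, fell by 1.97 log2 units from sorted cells to day 4 (adjusted p = 1.39e-06, limma), and was back at 3342 to 5950 by day 14. Acta1, the skeletal muscle actin, stood 1.40 log2 units over sorted cells.

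Cnn2 (calponin-2, which binds actin filaments) and Actn1 (alpha-actinin-1, which cross-links them) were close to uniform across the gelatin arrays. Cnn2 read 2819 to 3698 on gelatin and at most 1278 elsewhere. Actn1 read 3604 to 4918 through one probe set and 14180 to 18468 through another, both without overlap, and 3.70-fold and 2.49-fold over the nearest group. The remaining Actn1 probe set was lower on gelatin than in sorted cells by 0.40 log2 units. Csrp1, a LIM protein of the cytoskeleton, was 2.54-fold over day 8. The other Csrp1 probe set differed from sorted cells and day 4 by 0.12 and 0.02 log2 units. On gelatin it was lower than at day 8 (-0.42) and day 14 (-0.73).

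The focal adhesion genes were nearer to the threshold. Itgb1, the integrin β1 subunit, read 8089 to 11040 against at most 4684 elsewhere (2.24-fold over day 14), and its other probe set missed the threshold at 0.84. Vcl, the adhesion plaque protein vinculin, was the member closest to it at 1.00 log2 unit over sorted cells, and read 7811, 6676 and 5042 on gelatin replicates 1, 2 and 5 but 3800 to 4046 on replicates 3, 4 and 6. Lpp, another adhesion plaque protein, and Ahnak, a large membrane-cytoskeleton scaffold, stood 1.28 and 1.25 log2 units over day 14. Nes, the intermediate filament protein nestin, which is also a neural progenitor marker, read 3391 to 5264 on gelatin and at most 1192 elsewhere. Its other probe set differed from the groups by -0.12 to -0.10 log2 units. Lmna, Gsn, Msn, Cryab, Capzb, Apbb1ip, Asap1 and Mapre1 make up the rest, at 1.09 to 1.72 log2 units. The other Lmna probe set differed from the groups by -0.12 to 0.08, and that of Cryab by -0.14 to 0.0006. A dim Capzb probe set was lower on gelatin than in every group (-0.23 to -0.05), and another stood 0.13 over day 14. A brighter Mapre1 probe set was level with day 14 (-0.01).

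Promoters bear on genes that move together, so the windows from 250 bases before to 50 after the annotated RefSeq start (GRCm38.p6) were searched on both strands. A window was given for 71 of the 92 higher genes and 6 of the 8 lower genes. The CArG box was found in 5 of the 71 (7.04%), beside 1.81% of all 27025 genes with a window, and the TEAD motif GGAATG in 22 (31%), beside 16.6%. The AP-1 motif TGANTCA was in 5 (7.04%, against 8.97%), the antioxidant response element TGACNNNGC in 11 (15.5%, against 14.0%) and the CEBP-ATF response element TGATGNAAT in 0 (against 1.08%). These are matches of letters, with no measurement of binding. All 5 CArG boxes lay before the start and none overlapped another of these motifs. Their surroundings are shown because 4 of the genes, Acta1, Cnn2, Myl9 and Vcl, are of the contractile and adhesion group, while Myadm is a membrane protein of lipid rafts. Each stretch is written along the gene's strand with the CArG box in capitals.
Acta1, chr8:123894819-123894868, minus strand: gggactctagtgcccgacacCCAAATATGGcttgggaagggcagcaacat
Cnn2, chr10:79988524-79988573, plus strand: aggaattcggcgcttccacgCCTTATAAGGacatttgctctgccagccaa
Myl9, chr2:156775283-156775332, plus strand: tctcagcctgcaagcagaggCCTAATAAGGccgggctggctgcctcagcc
Vcl, chr14:20929151-20929200, plus strand: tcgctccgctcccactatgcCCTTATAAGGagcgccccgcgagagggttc
Myadm, chr7:3292817-3292866, plus strand: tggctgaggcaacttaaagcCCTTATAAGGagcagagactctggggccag

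The Vcl, Cnn2 and Myadm boxes carry the same core. Their genes differed in how far gelatin stood from the nearest group, at 1.00, 1.89 and 1.24 log2 units.

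Secreted signals and receptors numbered 19 probe sets for 17 genes. Axl, a receptor tyrosine kinase, read 3528, 3231, 2905, 2459, 2688 and 2907 on gelatin replicates 1 to 6, against at most 906 elsewhere, and was 4.07-fold over day 14. Ptgs2, the inducible cyclooxygenase, was uneven, with 2352 and 1382 on replicates 1 and 2 and 385 to 715 on the others. All 6 were still above the highest other array, at 323. Bdnf, a neurotrophin, read 4169 to 8952 on gelatin and reached 3151 on a day 4 array, 3.90-fold over that group's mean.

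The chemokine genes Ccl2 and Ccl7, which attract monocytes, overlapped day 4. Ccl2 read 1009 to 1472 on gelatin and 70.7 to 1112 at day 4, where replicate 2 was again the highest, and 83.9 to 108 at day 14. Inhba, the activin βA chain, ranged from 1921 to 8565 on gelatin, and overlapped day 4 as well. Thy1, a surface glycoprotein of fibroblasts and neurons, read 1404 to 2041 on gelatin, 688 to 1054 in sorted cells, 326 to 818 at day 4 and 204 to 292 at day 8. Thbd, the endothelial and endodermal thrombin receptor thrombomodulin, was 4.06-fold over sorted cells. Rgs16, Dok1, Ereg, Ghr, Edn1, Epha2, Ltb, Cpe and Cd200 fill the group, at 1.03 to 1.86 log2 units.

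Membrane, caveolae and calcium-binding genes made up 10 probe sets for 8 genes. All 3 probe sets of Anxa1, a calcium-dependent phospholipid-binding protein, met the rule, at 4.29-, 2.86- and 2.54-fold over sorted cells. The brightest read 10275 to 15632 on gelatin and at most 7448 elsewhere. The caveolar coat genes Cav1, Cavin1 and Cavin2 were 1.68, 1.26 and 1.80 log2 units from the nearest group, and Cav1 read 7694 and 5571 on replicates 1 and 2 and 2763 to 4321 on the others. Second probe sets of Cav1 and Cavin1, both dim, were lower on gelatin than in every group. Anxa3, Capn2, Myadm and S100a3 complete the group.

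The cell cycle and survival group (10 probe sets, 10 genes) paired growth-promoting and growth-restraining genes. Cdkn2b, the CDK inhibitor p15, read 1431, 1090, 918, 990, 926 and 1085 on gelatin replicates 1 to 6, against at most 264 in sorted cells, 611 at day 4, 228 at day 8 and 120 at day 14. It was 4.36-fold over day 4 with no overlap. Cdkn1a, the CDK inhibitor p21, read 4260 to 5218 against at most 2327 elsewhere. A second Cdkn1a probe set was higher on gelatin than in sorted cells by 1.67 log2 units but not higher than at day 8 (-0.10).

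Ccnd1, the G1 cyclin D1, was even across gelatin (6072 to 6698) and above all other arrays, of which the highest read 3889. Its other probe set differed from the groups by -0.08 to 0.11 log2 units. Myc, the growth-promoting transcription factor and a LIF target, read 565 to 748 on gelatin and at most 433 elsewhere, 2.16-fold over day 14. Perp, a p53-induced membrane protein, was 3.65-fold over day 4 (4507 to 6247 on gelatin), and Ccng1, a p53-induced cyclin, was 2.47-fold. Sfn, Rprm, Rassf1 and Bcl2 had differences of 1.07 to 1.60 log2 units. The other Bcl2 probe sets were brighter, with gelatin means of 681 and 1100, and stood only 0.11 to 0.29 log2 units over the groups.

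Another 18 probe sets for 17 genes had other roles. Crybg1 and Tchh, the latter a structural protein of the hair follicle, stood 4.41-fold and 4.89-fold over day 4, and Tchh was dim in sorted cells (42.9 to 55.0). Another Tchh probe set differed from the groups by -0.11 to 0.07 log2 units, and a further one had all group means under the floor. Ankrd1, a stretch-responsive cofactor, read 2702, 1563, 895, 408, 750 and 800 on gelatin. Its lowest gelatin array lay within the range of day 14 (224 to 423). The 14 probe sets with no single symbol included the second strongest of all, at 3.01 log2 units over sorted cells, with 3970 to 8064 on gelatin and at most 1004 elsewhere. Of the 114, 20 (17.5%) were of the type whose probes match a family of related transcripts, against 8.65% of all probe sets, and such signals may mix paralogs.

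Among the 12 lower probe sets was Srgn, the proteoglycan core protein serglycin of parietal endoderm and blood cells. It read 43.5 to 64.3 on gelatin, on 4 arrays below the floor of 59.6 at which values were set before the logarithm. It read 171 to 345 in sorted cells, 101 to 198 on day 4 replicates 1 to 5 and 1673 and 2813 on replicates 6 and 7, and reached 4178 to 4441 at day 8 and 3159 to 7579 at day 14. With gelatin at the floor, its log2 differences of -2.13 to sorted cells and -6.53 to day 14 are set by that floor on one side.

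Rhox5, an X-linked homeobox gene of the placenta and germ line, read 678, 854, 870, 922, 892 and 973 on gelatin replicates 1 to 6. It read 10392 to 12483 in sorted cells, 2092 to 6758 at day 4, 6594 to 10390 at day 8 and 2788 to 7628 at day 14. No array overlapped gelatin, and the difference was 4.03-fold to day 4 and 3.77 log2 units to sorted cells. Pfkp, the platelet isoform of phosphofructokinase in glycolysis, read 289 to 419 on gelatin and at least 627 elsewhere (2.87-fold), and its other probe set was also lower than every group, by 0.56 to 2.26 log2 units. Mt1, a metal-binding metallothionein, read 1771 to 2184 on gelatin and at least 2697 elsewhere.

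The other lower genes were the acylthioesterase Lypla1, the HSP70 cochaperone St13, the disulfide isomerase Pdia6 and the mitochondrial dehydrogenase Hibadh. Pdia6 read 921, 839 and 947 on gelatin replicates 1, 2 and 5 and 325, 349 and 341 on replicates 3, 4 and 6, and St13 read 432, 432 and 598 against 169, 151 and 158. In 8 of the 12, replicates 1, 2 and 5 were all above replicates 3, 4 and 6, against 27 of the 114 higher ones and 16.3% of all probe sets. Replicates 3, 4 and 6 are those with the higher Gapdh and Actb ratios, and the part of RNA quality in these differences was not tested. The remaining Pdia6 probe set was higher on gelatin than in every group, by 0.20 to 0.41. With gelatin replicates 1, 2 and 5 alone, Rhox5, Srgn, Pfkp, Mt1 and 1 Lypla1 probe set still met the rule, and without replicate 6 alone 7 of the 12 did.

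The threshold divided a continuum. Just inside lay Vcl (1.00), S100a3 (1.01) and Slc27a2 (1.01), and just outside lay Fbxw7 (0.996), S100a4 (0.987) and Rap1b (0.980). On the lower side Hibadh (-1.05), a Pdia6 probe set (-1.05) and one shared by Taf9 and Gm12372 (-1.03) were inside, and Rhpn2 (-0.984), Kit (-0.956) and Matr3 (-0.916) outside. Of the 92 higher genes, 54 had a single probe set on the array, and 7 had more than 1 that met the rule. Another 40 probe sets of 32 of these genes did not, and 13 of those lay above all 4 group means. Of the 6 other probe sets of the lower genes, 5 lay below all 4.

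The tests against all 4 groups were also counted over gene lists, read beside 7.73% of all genes higher and 2.45% lower. Of 30 genes of actin contractility measured, 18 were higher (60%) and 0 lower. Outside the rule these were 12 of 24 (50%), where 6.86% of all genes outside the rule were higher. They include Tpm1, a tropomyosin (11037 to 15426 on gelatin, at most 8273 elsewhere, largest adjusted p = 1.02e-05, limma), Myh9, the nonmuscle myosin heavy chain (8872 to 11198, at most 8101), and Actb, the cytoplasmic actin (11897 to 15792, at most 10894). The count was 17 after quantile normalization, 18 after median centring and 14 to 18 with 3 gelatin arrays left out.

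Of 13 p53 targets, 7 were higher (53.8%) and 0 lower, and outside the rule 5 of 11 (45.5%). Besides Perp and Ccng1 these were Mdm2, the p53 ubiquitin ligase (3151 to 3977 on gelatin, at most 2813 elsewhere), Phlda3, Zmat3, Ei24 and the death receptor Fas. Of 15 YAP-TEAD targets, 7 were higher (46.7%) and 0 lower, 5 of them chosen by the rule (Ccn1, Ccn2, Ankrd1, Axl and Igfbp3) and the others Amotl2 and Ptpn14, which left 2 of 10 (20.0%) outside the rule. These counts held at 7 to 8 under both other scalings.

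Of 22 integrins and their partners, 6 were higher (27.3%), among them Itgav and the tetraspanin Cd151. This list also holds Itgb1, here through the probe set that missed the threshold, though the rule chose its other one. Of 20 matrix proteases and inhibitors 4 were higher (20.0%), with Timp1 and Timp3, or 3 of 19 (15.8%) outside the rule. Of 16 basement membrane genes 3 were higher and 1, Nid2, lower, which became 3 and 3 after quantile normalization and 1 and 1 with dim probe sets left out. Without Nid1, which the rule chose, 2 of 15 were higher (13.3%). Immediate early genes, which respond within minutes to serum or handling, had 6 of 21 higher (28.6%), with Egr1 at 2211 to 4027 on gelatin and 504 to 2556 at day 4. This count fell to 2 when gelatin replicates 3, 4 and 6 were left out. LIF-STAT3 targets had 5 of 20 higher (25%), namely Osmr, Pim1, Gbx2, Ccnd1 and Myc, and 1 lower, the receptor Lifr. Ccnd1 and Myc were chosen by the rule, and outside it 3 of 18 were higher (16.7%), where 6.86% of all genes were. Against sorted cells alone, 5 of the 20 were higher and 8 lower.

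Interferon and antigen presentation genes had 4 of 20 higher, 2 without replicates 3, 4 and 6. The oxidative stress list had 4 of 22 higher (Nqo1, Srxn1, Txnrd1 and Gsto1) and 2 lower (Mt1 and Mt2), of which Mt1 was chosen by the rule. On the lower side stood glycolysis and hypoxia, with 0 higher and 4 of 23 lower (17.4%), Pfkp, Pdk1, Bnip3 and Ndrg1, a count of 6 under either other scaling and of 2 with either set of 3 gelatin arrays left out. The germ line list had 3 of 14 lower (Rhox5, Prdm1 and Stra8), 1 with dim probe sets left out. Without Pfkp and Rhox5, which the rule chose, glycolysis had 3 of 22 lower (13.6%) and the germ line list 2 of 13 (15.4%). Of all genes outside the rule 2.4% were lower. DNA replication had 3 of 25 lower, which was 0 without replicates 3, 4 and 6. Mitosis had 3 of 25 lower and 1 higher, and blood and endothelium 2 of 25 lower and 1 higher. Neural genes had 2 of 26 higher (1 of 25 outside the rule), cholesterol synthesis 1 of 20, and ATF4 targets 2 of 32 higher and 1 lower.

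Ribosome biogenesis, pluripotency and extraembryonic endoderm had 1 gene in each direction, of 25, 28 and 29 measured. Those of extraembryonic endoderm were chosen by the rule, and outside it 0 of 27 passed in either direction. No gene of the epiblast and streak, trophoblast, cardiac or imprinted lists passed all 4 tests in either direction (17, 15, 18 and 19 genes). For these 4 lists the median difference to day 4 lay between -0.02 and 0.19 log2 units, where that of all genes was 0.02. Other single groups lay farther off for 2 of them. The imprinted list had medians of 0.33 to sorted cells and -0.79 to day 14. The cardiac list had -0.29 to day 8 and -0.33 to day 14. Those of all genes were 0.0 to sorted cells, 0.02 to day 8 and -0.001 to day 14. The epiblast and streak and trophoblast lists stayed between -0.16 and 0.04 against every group. The pluripotency genes had a median of -0.47 to sorted cells and 0.79 to day 14.

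**Figure D4:**
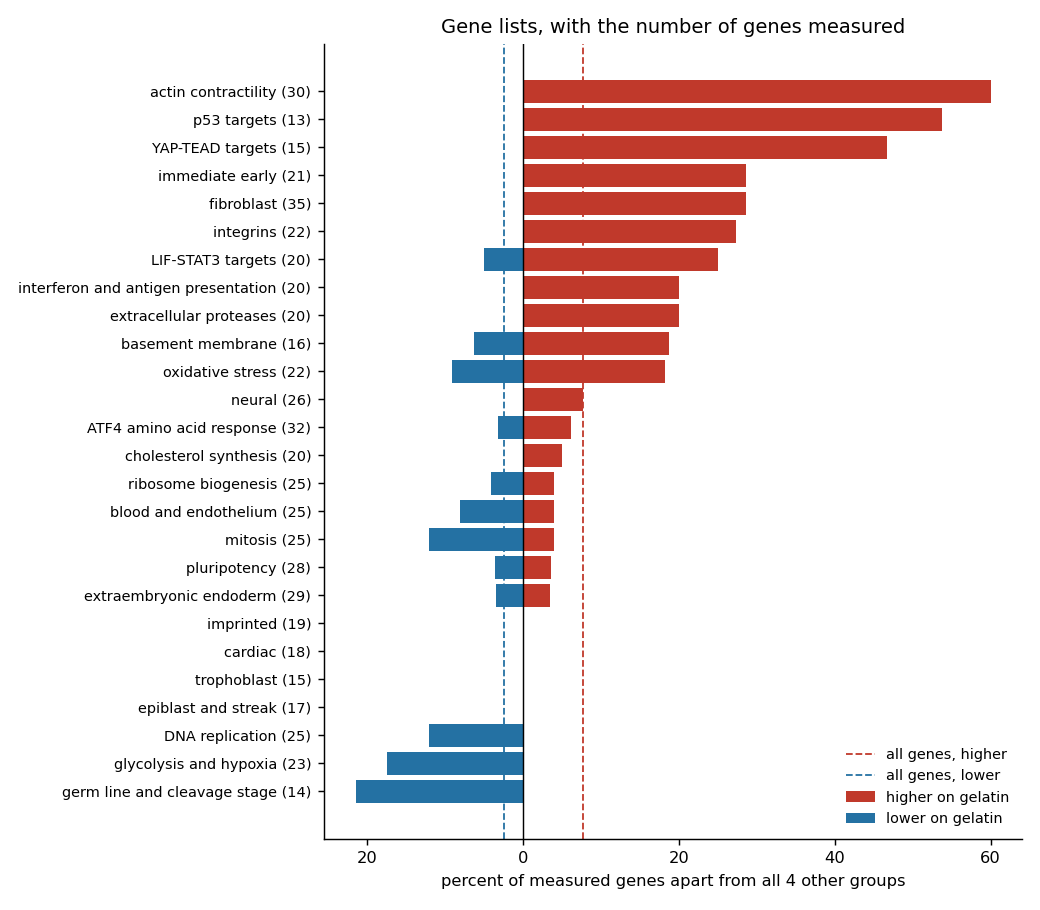
Share of the measured genes of each list (number in brackets) that passed all 4 tests higher on gelatin (bars to the right, in percent) or lower (bars to the left), with dashed lines at the shares of all genes, 7.73% and 2.45%. The shares include genes that the rule chose, and actin contractility, p53 targets and YAP-TEAD targets are at 60%, 53.8% and 46.7%, and at 50%, 45.5% and 20.0% without those genes.

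Of 35 fibroblast genes measured, 10 passed all 4 tests as higher (28.6%) and 0 as lower, and 6 met the rule (Tnc, Lox, Fbln2, Bgn, Col5a2 and Thy1). Outside the rule 4 of 29 were higher (13.8%), where 6.86% of all genes outside the rule were. The summed signal of the 35 was 62715 to 101242 on gelatin, highest on replicate 1, against 35112 to 44038 in sorted cells, 27476 to 42331 at day 4, 30939 to 51053 at day 8 and 57962 to 80812 at day 14. The highest day 4 sum was that of replicate 2. The other 25 of the 35 passed all 4 tests in neither direction. Among genes outside the rule, S100a4 and Cd44 read 3881 to 6585 and 271 to 483 on gelatin, and at most 2869 and 262 elsewhere. Pdgfrb and Fn1 read 216 to 310 and 10174 to 12920, and at most 237 and 10267 elsewhere. Prrx1 and Fap were dim, at 48 to 67.8 and 50 to 59.3 on gelatin, around the floor of 59.6. Both were as dim at day 14 (51.5 to 64.8 and 43.7 to 60.1), and neither passed the test against any group. Twist1, a mesenchymal transcription factor, read 714 to 823 on gelatin, 541 to 606 in sorted cells and 869 to 1104 at day 14. Col1a1, the main chain of collagen I, read 1471 to 3004 on gelatin and 752 to 914 in sorted cells. At day 14 it read 2222 to 3462. Against sorted cells 17 of the 35 were higher and 5 lower (limma, adjusted p under 0.05), where 1922 and 1516 of all 8251 were. Against day 14 EBs, 12 were higher and 9 lower, where 1989 and 1882 of all were.

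Postn, Lum and Dcn, matrix genes of mature fibroblasts, read 151 to 324, 208 to 248 and 356 to 433 on gelatin, and 3433 to 5349, 4331 to 6630 and 2901 to 6754 at day 14. Col3a1 read 681 to 1152 on gelatin, within the range of sorted cells (598 to 1210). Col1a2 read 2394 to 7152 on gelatin and 3646 to 7211 at day 14, with 719 to 1488 in sorted cells. Mfap5, a microfibril protein, was in the order gelatin (2132 to 3375), sorted cells (1276 to 2031), day 4 (219 to 1008), day 8 (116 to 214) and day 14 (82.9 to 98.4), with a difference from gelatin to sorted cells that missed the threshold (adjusted p = 0.0546, limma). The part of feeder fibroblasts in the gelatin signal was not tested.

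**Figure D5:**
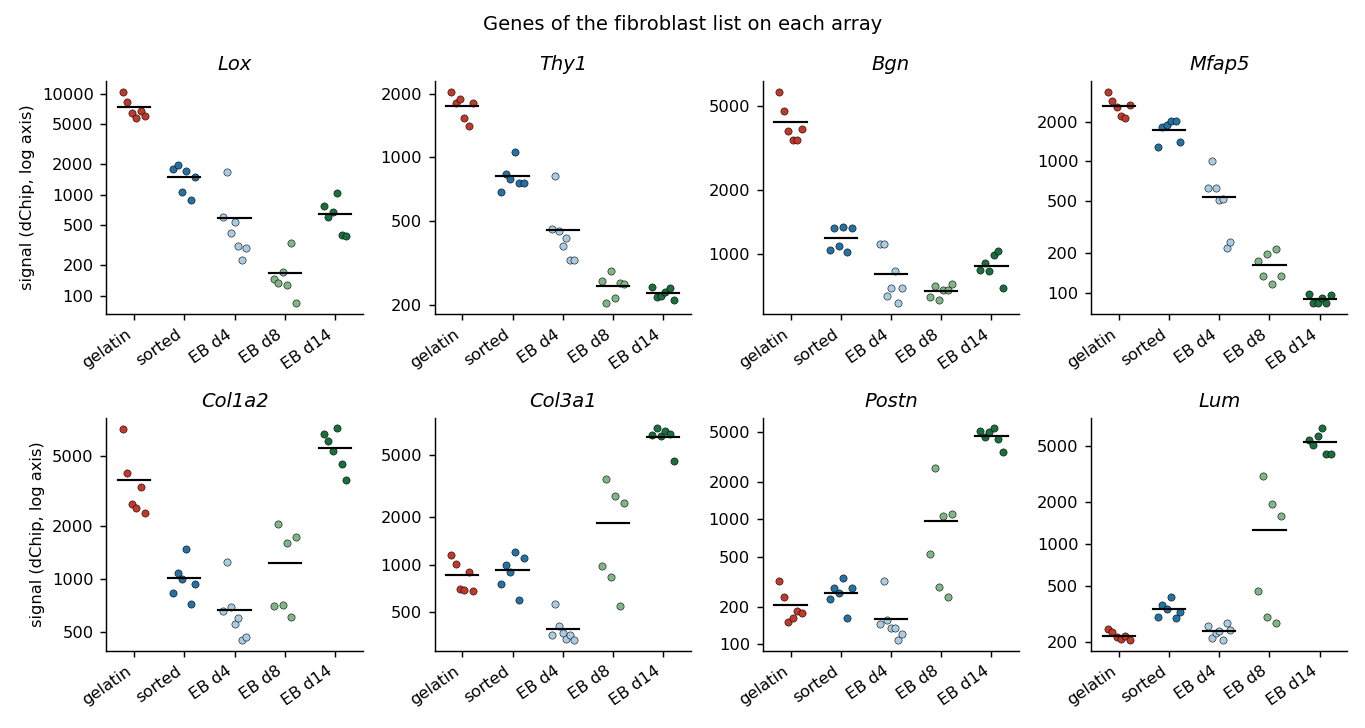
Signal on each array (vertical log axis, dChip units) of 8 genes of the fibroblast list, by group, with the group mean as a bar. Lox, Thy1 and Bgn are highest on gelatin, Mfap5 declines from gelatin to day 14, and Col3a1, Postn and Lum are highest at day 14, where gelatin lies at 681 to 1152, 151 to 324 and 208 to 248.

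Between the other groups, where gelatin arrays do not enter, the 114 were not silent. Their group means had entered the rule, so these counts are read beside those of all probe sets. From sorted cells to day 4, 13 rose (11.4%) and 20 fell (17.5%), where 11.1% of all rose and 13.7% fell. From day 4 to day 8, 8 rose (7.02%) and 32 fell (28.1%), where 11.9% rose and 12.6% fell, and the median change was -0.31 against 0.00 for all. From day 8 to day 14, 30 rose (26.3%) and 4 fell (3.51%), where 20.1% rose and 11.9% fell. Of the 114, 42 (36.8%) changed in none of these contrasts, against 42.2% of all, and 10 (8.77%) fell at day 8 and rose at day 14, against 2.46% of all.

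These counts depend on few arrays. Without day 4 replicates 6 and 7, which stood apart in their endoderm genes, 21 of the 114 rose and 15 fell from sorted cells to day 4 (14.3% and 17.1% of all), and 9 rose and 54 (47.4%) fell from day 4 to day 8 (18.1% and 19.4% of all). By the rule itself, 106 probe sets were then higher on gelatin, all among the 114, and 12 lower, 11 of them among the 12. Without day 4 replicate 2, 8 rose and 34 fell from sorted cells to day 4, and 18 rose from day 8 to day 14 without day 14 replicate 4 and 19 without day 8 replicate 1.

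Of the 30 probe sets that rose from day 8 to day 14, 12 were among the 22 of the matrix group, in which 0 fell. Over all probe sets 20.1% rose and 11.9% fell. Col5a2 rose by 2.27 log2 units (adjusted p = 4.48e-05, limma), Tnc by 2.22 and by 1.60 in its second probe set (0.00111 and 0.000392), and Lox by 2.00 and 0.65 (0.000149 and 0.0483). The receptor Axl rose by 1.54 (3.64e-05). From day 4 to day 8 the change of Slc27a2, a fatty acid transporter, was -1.66 (1.92e-08), of Ccl2 -1.65 (0.00298), of Ccnd1 -1.04 (0.0016) and of Tagln -0.87 (6.31e-06), all by limma. Without day 4 replicates 6 and 7 these were -1.89, -2.43, -1.37 and -0.89, with adjusted p of at most 9.71e-06.

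In the membrane and caveolae group 6 of 10 probe sets, which are of 8 genes, fell from sorted cells to day 4, where 13.7% of all fell. Cav1 fell by 1.05 log2 units (adjusted p = 0.000292, limma). Cavin2 fell too, but was at or under the floor on 6 of the 7 day 4 arrays, so the size of its fall is set by the floor. In the cell cycle group 5 of 10 rose, where 11.1% of all rose. The chosen probe sets of Bcl2 and Perp rose by 0.87 and 0.76, or by 1.12 and 1.16 without day 4 replicates 6 and 7. Of the 12 lower probe sets, 5 rose from day 4 to day 8 (41.7%), where 11.9% of all rose. Srgn rose by 3.88 (adjusted p = 7.62e-06, limma) and Rhox5 by 1.29 (0.000153). From day 8 to day 14, 2 rose and 1 fell (16.7% and 8.33%), where 20.1% of all rose and 11.9% fell. Without those day 4 arrays Srgn rose by 5.03 and Rhox5 by 1.64.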

How the data were processed

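RNA of each culture was amplified in 2 rounds by the authors and hybridised to MgU74Av2 arrays. The deposited values are signal intensity on a linear scale, which the authors normalized between arrays and summarised per probe set with dChip; the model and version are not given in the sources used here. From these values, 66 control probe sets were left out, the 5th percentile of all values (59.6) was set as a floor, and log2 was taken. Gene symbols come from the platform annotation: 10833 probe sets have 1 symbol, 396 several and 1193 none.

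Group means were fitted to all 31 arrays at once with limma 3.58.1 in R 4.3.3, using lmFit followed by eBayes with its trend option, so that the 5 groups share one estimate of the spread. P-values were adjusted over the 12422 probe sets by Benjamini-Hochberg, with a threshold of 0.05. The scripts were tested on simulated data. The methods call the arrays biological samples; nothing says how cultures were kept apart, so p-values measure the spread between these arrays, whose number limits the precision. A gene of a list is represented by its brightest probe set.

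The probe sets, gene lists and tests were chosen with earlier results of these data known, and the roles were assigned after values were seen. Named by rule are the 15 higher and up to 15 lower probe sets farthest from the nearest group, up to 6 chosen genes of each list, the 3 on each side of the threshold, and pluripotency genes as a check of the label; the other genes were named after their values were seen. Alternatives covered the scaling between arrays, the floor, dim probe sets, array weights, the variance trend, a replicate block, fits of single pairs of groups, the fold and the kind of mean in the rule, the mean over a gene's probe sets, and each array left out. Leaving out gelatin replicates 1, 2 and 5 or 3, 4 and 6 or EB day 4 replicates 6 and 7, and every alternative for the changes between the other groups, was added after seeing the data. Promoter sequences are RefSeq windows on GRCm38.p6.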

Additional observations from a re-analysis of the deposited data

Results flagged for a closer look

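Igfbp7 read 3528.71 on gelatin replicate 1, far from the other 5 gelatin arrays, of which the highest read 2453.43. Cdkn2b read 1430.65 on the same array, where the next gelatin array read 1090.16. Among the 63 named probe sets examined in this way on gelatin, these were the 2 that stood out, and chance gives about 1 in 20. Both remained above every array of the other groups on all 6 gelatin arrays.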

How the results depend on the processing

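Leaving out each array in turn gave 106 to 118 higher and 7 to 14 lower probe sets, the lowest without gelatin replicate 1 (higher) and gelatin replicate 6 (lower). A 1.5-fold rule gave 303 and 49, and a 3-fold rule 36 and 3. After quantile normalization, gelatin was lower at 1840 probe sets against day 4 and at 459 against all 4 groups. After median centring it was lower at 3796 against sorted cells, 2422 against day 4 and 420 against all 4. With dim probe sets left out it was lower at 1372 against sorted cells and 1788 against day 14. With a 2-fold difference added to the adjusted p, the counts higher and lower were 502 and 115 against sorted cells, 266 and 32 against day 4, 449 and 228 against day 8, 402 and 463 against day 14, and 114 and 12 against all 4. With gelatin replicates 3, 4 and 6 left out, an alternative chosen after seeing the data, gelatin was lower at 466 against day 4 and 101 against all 4, and 6 met the rule as lower. With replicates 1, 2 and 5 left out, 27 did. For the 114 between the other groups, array weights gave 62 that fell from day 4 to day 8 and 10 that fell from day 8 to day 14, median centring 7 of the latter, and 7 or 8 rose from sorted cells to day 4 with the higher floor or without dim probe sets. Without day 4 replicates 6 and 7, also chosen after seeing the data, 21 rose from sorted cells to day 4, 54 fell to day 8 and 7 fell to day 14. Leaving out each array gave 8 to 14 rising and 15 to 34 falling from sorted cells to day 4, 6 to 8 and 23 to 47 to day 8, and 18 to 37 and 3 to 6 to day 14. The cause was not tested.

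Replicate numbers did not pair the samples: same-numbered residuals correlated between -0.351 and 0.376, and the own number was best in 4 of 24 pairs. With the replicate number as a block, 865 probe sets were higher and 242 lower than in all 4 groups.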
